A study of Homo sapiens with 32 samples.

Results

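The mitotic kinesins described here are 10 genes of the kinesin superfamily, KIF20A, KIF2C, KIF14, KIF23, KIF11, KIF4A, KIF18A, KIF22, KIFC1 and KIFC2, chosen by symbol. Each was read from the brightest probe that the platform annotation pairs with its symbol, in 32 bead-array samples (Illumina) of the human cell line PC-3, grown from a prostate adenocarcinoma. All 10 passed a filter on dim probes, so they are 10 of the 10598 genes tested. A level is the log2 intensity of a gene's probe after background correction and quantile normalization, and a change is a difference of such levels. Probes differ in how brightly they bind, so levels were compared between arrays and never between genes.

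PC-3 flasks received 4-hydroperoxycyclophosphamide, called active by the labels, cyclophosphamide, called inactive, or vehicle for 10, 24 or 48 h. Cyclophosphamide is a prodrug that liver enzymes oxidise to its 4-hydroxy form, and the hydroperoxy derivative yields that form in culture medium without them. The dose was 5.5 µM for the active compound. The labels' protocol gives the same dose for the inactive compound, while the series' design text attaches it only to the active one. The active compound's groups held 2, 2 and 3 arrays at 10, 24 and 48 h, set against 3 vehicle arrays at each time. The inactive compound, in an experiment with its own controls, had 3, 3 and 2 arrays at the same times, set against 3, 3 and 2 vehicle arrays. Sample fields call these controls untreated, and the protocol calls them vehicle. No label says that replicate arrays stand for separate flasks, so the tests set each difference against a spread that may be technical.

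Kinesins are motors that walk along microtubules or take them apart. Dividing cells make a group of them in G2 and mitosis, when they build the spindle, move chromosomes and close the cleavage furrow, and their transcripts are low in the rest of the cycle. KIF11 slides the spindle poles apart, KIFC1 pulls the other way and clusters centrosomes, and KIF2C takes microtubules apart at kinetochores. KIF18A, KIF22 and KIF4A act on chromosome position and on the length of spindle microtubules. KIF20A, KIF23 and KIF14 act at the central spindle and the midbody in cytokinesis. KIFC2 is a minus-end kinesin known from transport in mouse neurons and not as a spindle motor, so its place under this name is by sequence family and not by role. The arrays measured RNA of whole cultures, in which fewer cells in mitosis and less RNA per cell cannot be told apart.

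Promoters of genes that peak in G2 and mitosis often hold a CCAAT box, bound by NF-Y. Close to it they often hold a cell cycle genes homology region, TTTGAA or its variant TTCGAA, through which the DREAM and MYB-MuvB complexes act. This region is called the cell cycle element here, and is not the site known as the cell cycle-dependent element. RefSeq promoter entries on GRCh38.p14, running from 250 bases before to 50 bases after the start site, were held for 9 of the 10 genes, with 2 entries for KIF22. The 100 bases up to the start site are shown for the 5 spindle and cytokinesis kinesins that were lower under the active compound in some comparison described here, and for KIF4A, which was not. They are KIF20A at chr5:138179012-138179111 (plus), KIF2C at chr1:44739737-44739836 (plus), KIF14 at chr1:200620752-200620851 (minus), KIF23 at chr15:69414249-69414348 (plus), KIF11 at chr10:92593030-92593129 (plus) and KIF4A at chrX:70290004-70290103 (plus), with the strand in parentheses. Each runs 5′ to 3′ on the gene's own strand, and capitals mark a match to the box or to either form of the element. On the opposite strand the box reads ATTGG and the element TTCAAA.
KIF20A: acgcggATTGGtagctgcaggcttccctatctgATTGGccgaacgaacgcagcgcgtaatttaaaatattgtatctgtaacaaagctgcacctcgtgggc
KIF2C: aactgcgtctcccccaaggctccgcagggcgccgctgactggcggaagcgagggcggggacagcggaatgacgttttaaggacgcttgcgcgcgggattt
KIF14: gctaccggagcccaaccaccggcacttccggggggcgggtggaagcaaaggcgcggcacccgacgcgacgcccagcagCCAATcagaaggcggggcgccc
KIF23: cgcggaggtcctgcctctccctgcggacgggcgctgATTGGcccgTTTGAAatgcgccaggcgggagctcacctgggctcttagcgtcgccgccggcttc
KIF11: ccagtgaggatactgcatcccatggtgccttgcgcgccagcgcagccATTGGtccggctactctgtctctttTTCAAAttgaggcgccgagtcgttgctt
KIF4A: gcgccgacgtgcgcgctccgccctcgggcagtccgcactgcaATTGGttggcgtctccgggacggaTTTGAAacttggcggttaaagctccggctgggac

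Over the whole windows, CCAAT was found in 8 of the 9 genes, against 10846 of the 27305 genes with a promoter entry. Among tested genes with an entry it was found in 3876 of 8810. TTTGAA was found in 6 of the 9, namely KIF14, KIF23, KIF11, KIF4A, KIF18A and KIFC1. Over all 27305 genes 4961 held it, and over the 8810 tested genes 1258 did. TTCGAA was found in KIF22, at 1 site that both of its overlapping entries hold, against 496 of all genes and 207 of tested genes. The matches of one motif did not overlap those of another. KIF20A had 2 CCAAT boxes, at -94 and -67 from the start site, and no cell cycle element by these letters, and KIF2C had none of the 3 motifs. KIF23 had the closest spacing, with CCAAT at -64 and TTTGAA at -55. KIF4A had both motifs and did not pass the test in any comparison described here. A match is a run of letters and says nothing of binding.

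**Figure D1:**
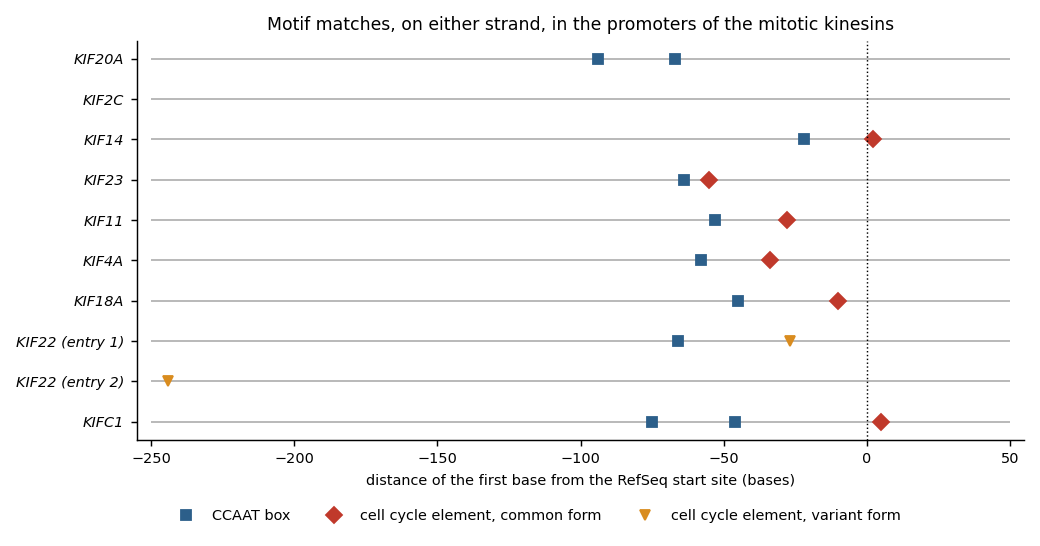
Position of each motif match along the promoter entries of 9 mitotic kinesins, as the distance in bases of its first base from the RefSeq start site (dotted line). Squares are CCAAT boxes, diamonds the common and triangles the variant form of the cell cycle element (the cell cycle genes homology region). KIF20A shows 2 boxes at -94 and -67 and no element, and the line of KIF2C is empty.

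The upper quartile of raw intensity was 431 to 656 on active-compound arrays and 275 to 416 on inactive-compound arrays, and the median residual SD over genes was 0.110 and 0.186 log2 units, so the inactive-compound experiment was the less precise. The line's markers KRT8, KRT18, KRT19, EPCAM, CDH2, VIM and LCN2 were each brighter than at least 92.1% of probes, while CDH1 did not pass the filter. Of 6 markers of other cells that were read here, the probes of KLK3, CD3E and VWF did not pass, and those of TMPRSS2, PTPRC and PECAM1 passed at mean levels of 7.52, 6.81 and 7.03. Each title ends in a letter code of its own, and the alphabetical order of these codes runs through the groups 3 times in each experiment, with some groups missing from a pass. These 3 passes are called runs here, an inference from the codes that no label states. In the inactive-compound experiment the change from 10 to 24 h in run 3 went against that in runs 1 and 2 across genes (correlations of -0.36 and -0.40, against 0.32 between runs 1 and 2 and 0.19 to 0.40 between active-compound runs). On an axis from 10 to 24 h built from the other runs, the 4 arrays of run 3 lay on the other time's side, but so did the 10 h arrays of its runs 1 and 2 and a vehicle array at 10 h of the active-compound experiment, so which arrays carry a doubtful time cannot be told from these values. The main results of the inactive-compound experiment are given with and without the 4 arrays of run 3. Adjusted p-values are limma's, by Benjamini-Hochberg over all 10598 genes.

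After 10 h of the active compound, KIF20A and KIF2C were among the genes that fell furthest, KIF14 fell less, and KIFC2 rose. KIF20A, which carries the Aurora B complex to the central spindle, had 9.54 and 9.58 on active-compound arrays, against 10.50, 10.52 and 10.49 on vehicle arrays. The groups were far apart beside their spread. KIF20A fell 1.92-fold (log2 change -0.94, SE 0.10, adjusted p = 1.95e-06), the fourth lowest change of all genes.

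KIF2C had 9.16 and 9.51 under the active compound, against 10.07, 10.09 and 10.26 under vehicle. Both treated arrays lay below all vehicle arrays, although they were further apart than the vehicle arrays were. Its change was 1.75-fold downward (log2 change -0.81, SE 0.10, adjusted p = 4.27e-05). KIF14, which works with PRC1 and citron kinase in cytokinesis, had 9.52 and 9.23 under the active compound, against 9.95, 9.79 and 9.67 under vehicle (log2 change -0.43, SE 0.10, adjusted p = 0.0307). KIFC2 had 10.13 and 9.86 under the active compound, against 9.41, 9.56 and 9.39 under vehicle, again without overlap, and rose by 0.54 (SE 0.10, adjusted p = 0.00532).

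In all, 3 of the 10 members fell and 1 rose at 10 h, where 1.1% of all genes fell and 0.547% rose. The median change of the members was -0.24, against -0.00 over all genes. Those shares are unstable, since the 175 genes called in either direction became 43 without treated replicate 1 and 1090 without treated replicate 2, and 61 to 138 without 1 vehicle array. KIF23, which forms centralspindlin with RACGAP1, stood at -0.28 (adjusted p = 0.123) and KIFC1 at -0.29 (0.149), and neither passed. KIF11 was at 0.02 (adjusted p = 0.940), with 10.01 and 9.63 under the active compound, against 9.88, 9.85 and 9.67 under vehicle. KIF4A, KIF22 and KIF18A were at -0.21, -0.09 and -0.05, and none of the 3 passed. The calls of KIF20A and KIF2C held under all 11 other settings and without any 1 of the 5 arrays. That of KIF14 was lost under 4 settings and without vehicle replicate 1 or 2 or treated replicate 2 (adjusted p = 0.0927, 0.0723 and 0.134), and that of KIFC2 without treated replicate 1 (change 0.41, adjusted p = 0.297).

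**Figure D2:**
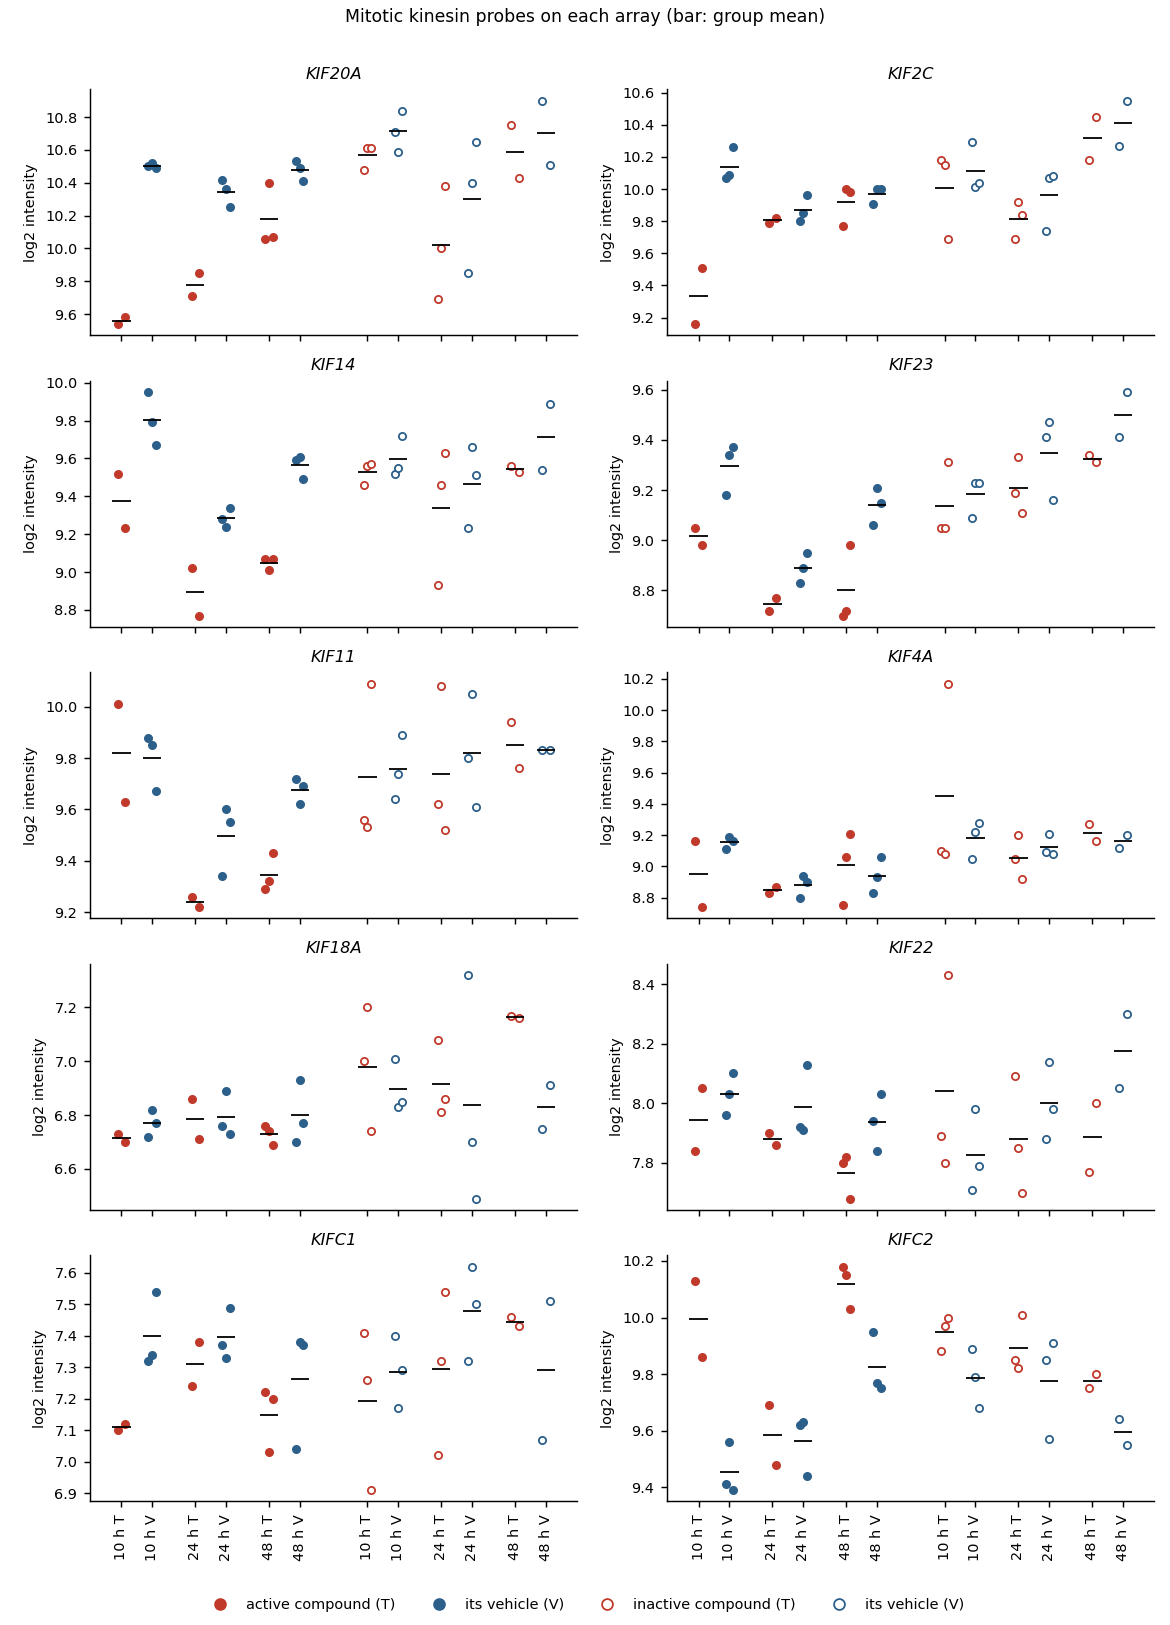
Log2 intensity (y axis, own range per gene, not starting at 0) of each mitotic kinesin on every array by time, filled for the active-compound and open for the inactive-compound experiment, red for treated (T) and blue for vehicle (V) arrays, with bars at group means. KIF20A lies at 9.54 and 9.58 on the 10 h active-compound arrays and at 10.49 or above on their vehicle arrays, and KIFC2 shows the opposite order.

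At 24 h KIF20A and KIF14 were lower, and KIF2C and KIFC2 stood near their vehicle levels. KIF20A had 9.71 and 9.85 under the active compound, against 10.42, 10.36 and 10.25 under vehicle, and fell by 0.56 (SE 0.10, adjusted p = 0.00156). KIF14 had 9.02 and 8.77 under the active compound, against 9.28, 9.24 and 9.34 under vehicle (log2 change -0.39, adjusted p = 0.0453). Neither gene's groups overlapped. KIF2C, with 9.79 and 9.82 under the active compound and 9.80, 9.85 and 9.96 under vehicle, was at -0.07 (adjusted p = 0.848), and KIFC2 was at 0.02. KIF11 was at -0.26 (adjusted p = 0.297), with 9.26 and 9.22 under the active compound, against 9.34, 9.60 and 9.55 under vehicle.

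Thus 2 of 10 members fell at 24 h and none rose, where 0.783% of all genes fell and 1.13% rose. The members' median change was -0.10, against -0.00 over all genes. Without 1 array the 203 genes called in all became 44 (treated replicate 1) to 145 (vehicle replicate 2). The call of KIF20A was lost when both experiments shared 1 spread (adjusted p = 0.445) and without treated replicate 1 (0.0926). That of KIF14 was lost under 7 of 11 settings, and without any 1 of the 5 arrays (0.0729 to 0.481).

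At 48 h more members passed as lower than at 10 or 24 h, and the fall of KIF20A was smaller. The members' median change was not larger, at -0.14 against -0.24 at 10 h, and far more of all genes passed (4.86% lower, against 1.1% at 10 h). KIF14 had 9.07, 9.01 and 9.07 under the active compound, against 9.59, 9.61 and 9.49 under vehicle. Its groups were tight and well separated, and it fell by 0.52 (SE 0.09, adjusted p = 0.000494). KIF11, the pole-separating motor, had 9.29, 9.32 and 9.43 under the active compound, against 9.72, 9.62 and 9.69 under vehicle, and fell by 0.33 (adjusted p = 0.0282). KIF23 had 8.70, 8.72 and 8.98 under the active compound, against 9.06, 9.21 and 9.15 under vehicle (log2 change -0.34, adjusted p = 0.0113).

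KIF20A had 10.06, 10.40 and 10.07 under the active compound, against 10.53, 10.49 and 10.41 under vehicle, with treated replicate 2 just under the lowest vehicle array. Its change was -0.30 (adjusted p = 0.0310). KIFC2 rose by 0.30 (adjusted p = 0.0402), with 10.18, 10.15 and 10.03 under the active compound, against 9.95, 9.77 and 9.75 under vehicle. KIF2C, at 9.77, 10.00 and 9.98 under the active compound, against 9.91, 10.00 and 10.00 under vehicle, overlapped with its controls (log2 change -0.05).

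In all, 4 members fell and 1 rose at 48 h, where 4.86% of all genes fell and 4.93% rose, and the median change was -0.14, against -0.01 over all genes. KIF22, KIFC1, KIF18A and KIF4A did not pass. On these arrays the summed linear level of 6 markers of other cells was 774 to 788 under the active compound and 645 to 721 under vehicle, and that of the 8 PC-3 markers was 28772 to 31434 and 25506 to 27399. A single gene passed in each list, TMPRSS2 among the first (log2 change 0.32, adjusted p = 0.0370) and LCN2 among the second (0.84, adjusted p = 6.87e-08), and the keratins, EPCAM, CDH2 and VIM lay between -0.08 and 0.13. Their part in the kinesin changes was not tested. The call of KIF14 held under all 11 settings and without any 1 of the 6 arrays. Those of KIF20A, KIF11, KIF23 and KIFC2 were each lost under 3 to 5 settings and in fits without 1 array, with adjusted p between 0.0588 and 0.143: KIF20A without vehicle replicate 1 or 2 or treated replicate 1 or 3, KIF11 without vehicle 1 or 3 or treated 1 or 2, KIF23 without vehicle 2 or treated 1 or 2, and KIFC2 without vehicle 2 or 3 or treated 1 or 2. KIF23 has a second, dim probe, and on that probe its 48 h change was 0.094 (adjusted p = 0.622), so the 48 h call rests on 1 of its 2 probes.

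**Figure D3:**
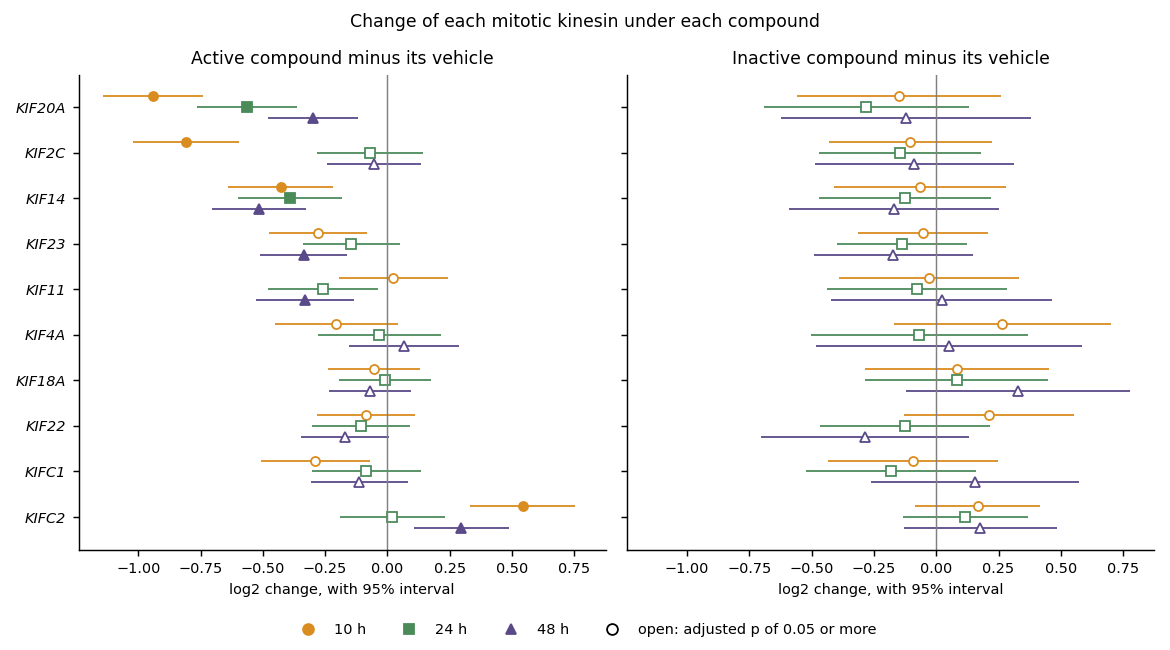
Log2 change of each mitotic kinesin under the active compound (left) and the inactive compound (right) against its own vehicle, with 95% intervals, at 10 h (circles), 24 h (squares) and 48 h (triangles); filled points have an adjusted p under 0.05. KIF20A moves from -0.94 at 10 h to -0.30 at 48 h, KIF2C is low at 10 h alone, KIF14 is lower at each time, and all points on the right are open.

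Averaged over the 3 times, 5 members fell under the active compound and 1 rose, where 5.5% of all genes fell and 5.41% rose. KIF20A fell by 0.60 (SE 0.05, adjusted p = 7.26e-08) and KIF14 by 0.45 (SE 0.06, adjusted p = 1.06e-05), the fourth and the sixteenth lowest of all genes. KIF2C fell by 0.31 (adjusted p = 0.000791), KIF23 by 0.25 (0.00247) and KIF11 by 0.19 (0.0426), and KIFC2 rose by 0.29 (0.00167). At each of the 3 times all treated arrays of KIF20A, KIF14 and KIF23 lay below all vehicle arrays. The share of all genes separated in this way is not given, so the separation only describes these arrays. KIFC1 was at -0.16 (adjusted p = 0.0796), KIF22 at -0.12 (0.154), KIF4A at -0.06 and KIF18A at -0.05. The calls of KIF20A, KIF14, KIF2C and KIFC2 held under all 11 settings and without any 1 of the 16 arrays. That of KIF23 was lost with median scaling (adjusted p = 0.0542) and on its dim probe (0.0773), and that of KIF11 under 5 settings and without any 1 of 11 of the 16 arrays (0.0672 to 0.156), those other than vehicle 10 h replicate 3, 24 h replicate 1 and 48 h replicate 2 and treated 10 h replicate 1 and 48 h replicate 3. Without vehicle 48 h replicate 1, KIFC1 passed (change -0.20, adjusted p = 0.0212).

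The change itself differed between times for KIF20A and KIF2C. The change of KIF20A was higher at 48 h than at 10 h by 0.64 (SE 0.13, adjusted p = 0.00488), and that of KIF2C by 0.76 (SE 0.14, adjusted p = 0.00204). These were 2 of the 10 members, where 2.89% of all genes had a higher and 2.23% a lower change at 48 h. From 10 h to 24 h the change of KIF2C differed by 0.74 (SE 0.14, adjusted p = 0.0118), where 0.51% of genes were called higher and 0.208% lower, and this call was lost without treated 10 h replicate 1 or either treated 24 h array (0.148, 0.0554 and 0.0641). KIF14, with a difference of -0.09 between 48 and 10 h and an interval of -0.37 to 0.19, did not pass, nor did KIF11, KIF23 or KIFC2, although without treated 10 h replicate 2 KIF11 passed at 48 h (-0.55, adjusted p = 0.0186) and KIFC2 at 24 h (-0.66, 0.0169). With 1 spread shared by both experiments none of these differences passed, and with median scaling only that of KIF2C at 48 h did.

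Across the 6 groups of the active-compound experiment, the mean level of KIF20A was 9.56 ± 0.03 at 10 h, 9.78 ± 0.10 at 24 h (SD, n = 2 each) and 10.18 ± 0.19 at 48 h (n = 3) under the compound. Its vehicle means were 10.50 ± 0.01, 10.34 ± 0.08 and 10.48 ± 0.06 at the same times (SD, n = 3 each). The treated groups at 10, 24 and 48 h did not overlap with each other, while the treated group at 48 h overlapped with vehicle at 24 h, and vehicle groups of neighbouring level overlapped. KIF14 ran, from low to high, from treated at 24 h (8.90 ± 0.17, n = 2) through treated at 48 h (9.05 ± 0.04, n = 3), vehicle at 24 h (9.29 ± 0.05, n = 3), treated at 10 h (9.37 ± 0.20, n = 2) and vehicle at 48 h (9.56 ± 0.06, n = 3) to vehicle at 10 h (9.80 ± 0.14, n = 3). Of these neighbours, the arrays of treated at 48 h and vehicle at 24 h and those of vehicle at 48 h and at 10 h did not overlap. KIFC2 was lowest in vehicle at 10 h (9.45 ± 0.09, n = 3) and highest in treated at 48 h (10.12 ± 0.08, n = 3). KIF18A moved least in this experiment, with group means between 6.72 and 6.80.

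Vehicle cells of the active-compound experiment also changed with time in culture. At 24 h KIF14 had 9.28, 9.24 and 9.34, against 9.95, 9.79 and 9.67 at 10 h, and was lower by 0.52 on the log2 scale (log2 change -0.52, SE 0.09, adjusted p = 0.00409). KIF23 had 8.83, 8.89 and 8.95 at 24 h, against 9.18, 9.34 and 9.37 at 10 h (log2 change -0.40, adjusted p = 0.0162). Thus 2 of 10 members fell in the control cells, where 0.793% of all genes fell and 0.51% rose, and KIF11, KIF4A and KIF2C stood at -0.30, -0.27 and -0.27 without passing. The call of KIF23 was lost without vehicle 24 h replicate 1 or 10 h replicate 2 or 3 (adjusted p = 0.0946, 0.0936 and 0.0536), and KIF14 lost its call only with 1 spread shared by both experiments (0.385). From 24 to 48 h none of the 10 passed, where 2.87% of genes did. KIF14 stood at 0.28 (adjusted p = 0.101), one of 3 members with an unadjusted p under 0.05. The vehicle arrays at 10 and 24 h are also the controls of the compound at those times, so these values share arrays with the changes given above. In vehicle cells of the inactive-compound experiment no member passed from 10 to 24 h or from 24 to 48 h, and 0% of all genes did. The members' median change from 10 to 24 h was -0.03 there, against -0.21 in the active-compound experiment. KIF14 had group means of 9.6 at 10 h and 9.47 at 24 h, and KIF23 changed by 0.16. Some times in that experiment are in doubt.

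Under the inactive compound, no member passed at 10, 24 or 48 h or on the mean, and 0% of all genes did (limma, unadjusted p under 0.05 for 523, 110, 155 and 450 genes, and for none of the 10 members). These are 4.93%, 1.04%, 1.46% and 4.25% of all genes, each under the 5% expected of p-values without any effect. This fit leaves out the inferred pairs, and 0% called does not show that the compound had no effect. KIF20A had 10.48, 10.61 and 10.61 at 10 h, against 10.71, 10.59 and 10.84 under vehicle, and 9.69, 10.00 and 10.38 at 24 h, against 9.85, 10.40 and 10.65. At 48 h it had 10.75 and 10.43, against 10.90 and 10.51 under vehicle. Treated and vehicle arrays overlapped at each time. The mean change of KIF20A was -0.18 (interval -0.44 to 0.07), -0.17 without the 4 arrays of run 3. The active compound's mean estimate, -0.60, lay outside this interval but has an error of its own. At 24 and 48 h alone the change was -0.28 (SE 0.19) and -0.12 (SE 0.24), beside -0.56 and -0.30 under the active compound. A direct comparison of the compounds is given below.

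KIFC2 was at 0.17, 0.12 and 0.18 at 10, 24 and 48 h under the inactive compound, with a mean of 0.15 (interval -0.00 to 0.31, adjusted p = 0.994). Without the 4 arrays it was at 0.09 at 10 h, 0.13 at 24 h and 0.13 on the mean. In this experiment every pair of treated and vehicle arrays of the same time and inferred run deviated together. Within these pairs KIF20A, KIF2C and KIF23 were each lower in 7 of 8, and KIFC2 was higher in 7 of 8. The share of all genes that reach such counts is not given. With this inferred pair as a block the mean change of KIF20A had an interval of -0.32 to -0.05 (adjusted p = 0.296) and that of KIFC2 one of 0.02 to 0.29 (0.397), and still no member passed. KIF4A had 9.10, 9.08 and 10.17 under the inactive compound at 10 h, against 9.05, 9.22 and 9.28 under vehicle, so its change of 0.26 rests on replicate 3, one of the 4 arrays. Without the 4 arrays it was -0.05. In that array KIF22 was also the highest of its group, at 8.43, and KIFC1 the lowest, at 6.91.

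Set side by side at matched times, the change under the active compound was lower than that under the inactive compound for KIF20A at 10 h by 0.79 (log2 difference -0.79, interval -1.22 to -0.36, adjusted p = 0.262) and for KIF2C by 0.71 (difference -0.71, interval -1.09 to -0.32, adjusted p = 0.262). Without the inferred pairs in the fit, neither passed over all genes, where 0.0189% were called. The compounds differ by the hydroperoxy group at the ring's 4-position. Each was given only in its own experiment, so compound and experiment cannot be told apart in these differences. At 24 h the difference of KIF20A was -0.28 (interval -0.71 to 0.15), at 48 h -0.18 (-0.66 to 0.31) and on the mean -0.42 (-0.68 to -0.16, adjusted p = 0.228). Without the 4 arrays of run 3 the difference of KIF20A was -0.83 at 10 h (adjusted p = 0.164), -0.28 at 24 h and -0.43 on the mean (0.119), and that of KIF2C at 10 h was -0.83 (0.146).

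In this fit, which leaves out the inferred pairs, no member passed in any of the 4 comparisons of the compounds. Of all genes, 0.0283% were called at 24 h, 0.0189% at 48 h and 0.179% on the mean. With the inferred pair as a block, KIF20A passed at 10 h and on the mean, as given with the alternative settings below. No label states these pairs. For KIF14 the mean difference was -0.32 (interval -0.56 to -0.09, adjusted p = 0.360), and for KIFC2 it was 0.13 (-0.07 to 0.34). Without the 4 arrays these were -0.30 and 0.16. The intervals at a single time were about as wide as the largest changes of the active compound, so a difference of moderate size was not detectable in this fit. The p-values of the 10 genes were adjusted over all genes tested, in each of the 4 comparisons. A p that misses the threshold does not show that the compounds act alike.

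Kinesins outside the list were set beside it, in lists also chosen with earlier results of these data known. At 10, 24 and 48 h, 1.1%, 0.783% and 4.86% of all genes fell under the active compound, and 0.547%, 1.13% and 4.93% rose. Of 6 other mitotic kinesins tested, CENPE, which links kinetochores to microtubules, and KIF20B, a cytokinesis kinesin, fell at 10 h by 0.54 (adjusted p = 0.00702) and 0.40 (0.0284). None passed at 24 h. At 48 h 3 fell, namely KIF15, which helps KIF11 keep the spindle bipolar, at -0.41, KIF20B at -0.36 and CENPE at -0.40 (adjusted p = 0.00463, 0.00579 and 0.00710). CENPE and KIF15 were also lower at 24 h than at 10 h in vehicle cells of the active-compound experiment (-0.39 and -0.38, adjusted p = 0.0386 and 0.0340). Of 15 transport and other kinesins tested, none passed at 10 or 24 h, and KIF1A, a carrier of synaptic vesicle precursors in neurons, rose by 0.48 at 48 h (adjusted p = 0.00371). The median change of the transport kinesins was 0.01, -0.00 and -0.05 at 10, 24 and 48 h, and that of the 6 other mitotic kinesins -0.06, -0.02 and -0.25.

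The 21 partners and regulators of these motors are a list chosen with earlier results known. Under the active compound 11 fell at 10 h, 3 at 24 h and 3 at 48 h. None rose. Over all genes, 1.1%, 0.783% and 4.86% fell at those times. Their median change was -0.38 at 10 h. The 10 h calls with the smallest p were HMMR, a spindle protein, at -0.90, CCNB2, cyclin B2, at -0.88, and the kinases PLK1 at -0.84 and AURKA at -0.75 (adjusted p = 1.95e-06, 1.95e-06, 7.28e-06 and 3.43e-05). At 24 h these were BUB1 at -0.46, HMMR at -0.46 and PLK1 at -0.38. At 48 h ECT2, which starts furrow ingression downstream of centralspindlin, fell by 0.50, BUB1 by 0.38 and PLK1 by 0.27. Under the inactive compound none of the 21 passed. There HMMR, CCNB2, PLK1 and AURKA stood at -0.14, 0.02, 0.02 and 0.13 at 10 h, and BUB1, HMMR and PLK1 at 0.05, -0.13 and -0.29 at 24 h. ECT2 stood at -0.54 at 10 h (SE 0.19), beside -0.52 under the active compound. In vehicle cells of the active-compound experiment 6 of the 21 were lower at 24 h than at 10 h, where 0.793% of all genes were. The log2 changes were -0.41 for TPX2, a spindle assembly factor, and -0.41 for CCNB1, cyclin B1 (adjusted p = 0.0218 and 0.0225).

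Of 14 transcription factors of late cell cycle genes and their regulators, none passed at 10 h. CDKN1A, an inhibitor of cyclin-dependent kinases, rose by 1.05 at 24 h and 1.11 at 48 h (adjusted p = 2.11e-06 and 6.11e-08). E2F1 fell by 0.41 and 0.53 (adjusted p = 0.0408 and 0.000577). FOXM1, an activator of mitotic genes, was at -0.07 at 48 h (adjusted p = 0.761). Of 15 cytoplasmic dynein and tubulin genes, none passed at 10 or 24 h, and at 48 h TUBB3, a tubulin typical of neurons, rose by 0.53 and DYNC1H1, the dynein heavy chain, fell by 0.26 (adjusted p = 6.01e-05 and 0.0472).

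**Figure D4:**
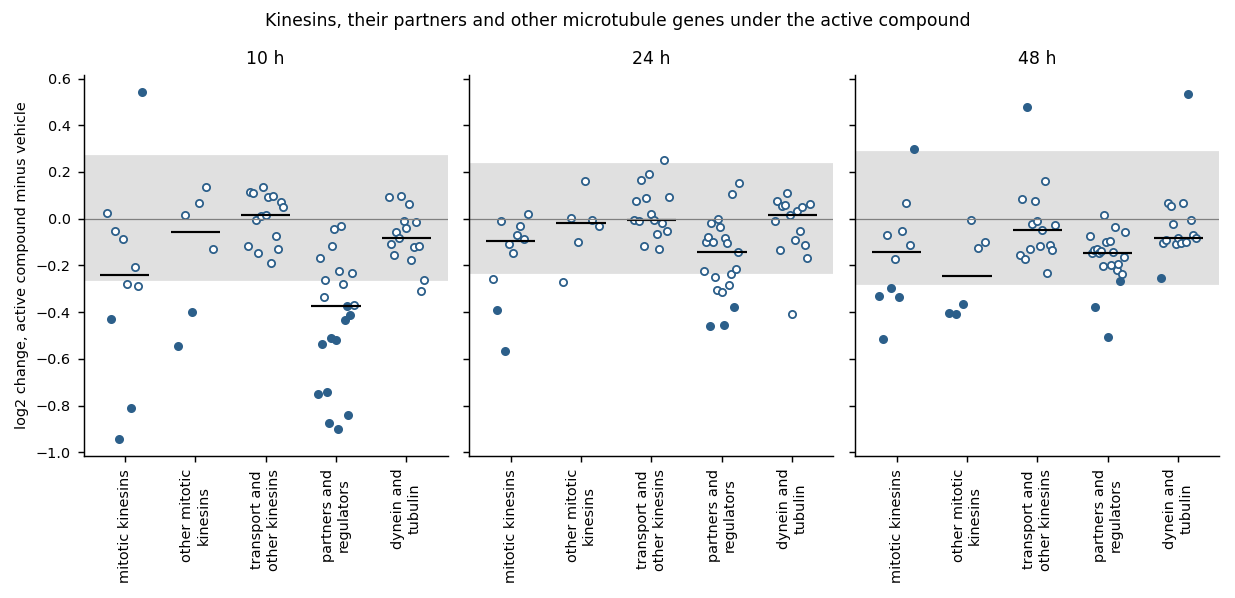
Log2 change under the active compound minus vehicle at 10, 24 and 48 h for each gene of 5 lists, with bars at list medians, filled points for an adjusted p under 0.05, and a grey band from the 5th to the 95th percentile of all genes (-0.26 to 0.27 at 10 h). The mitotic kinesins reach from -0.94 to 0.54 at 10 h, while the 15 transport and other kinesins stay between -0.19 and 0.14.

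Over the 32 arrays, with each experiment centred on its own mean, the genes outside the list closest to the mean of 9 members, KIFC2 left out, were CKAP2, KIF20B, CENPE, CCNF, BORA, TOP2A, HYLS1, CDCA2, PSRC1 and CCNA2, with Pearson correlations of 0.87 for CKAP2 down to 0.80 for CCNA2. Closest to KIF20A alone were CCNB2 (0.90), DLGAP5 (0.90) and HMMR (0.88), and closest to KIFC2 were OSBPL7 (0.81), NRBP2 (0.81) and CREB3L2 (0.80). Within the list, KIF23 and KIF14 were most like the mean of the other members (0.75 and 0.73), KIF11, KIF20A and KIF2C came next (0.49, 0.44 and 0.42), and KIF18A (-0.18) and KIFC2 (-0.55) ran against it. All these genes share the same arrays and scaling, and the correlations describe these arrays only. KIF18A lies near the filter on dim probes, at a mean level brighter than 48.7% of probes, which limits what its values can show.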

How the data were processed

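The signal table was deposited as linear intensity values for 20589 probes. A second table by the authors gives log2 values for the same arrays, normalized in a way that no source used here states. The tools named per the submitters' processing notes are BeadStudio and R 2.12.0. No detection p-values were used. The members and gene lists were chosen with earlier results of these data known.

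With limma 3.58.1 (R 4.3.3), normexp with an offset of 50 removed the background, log2 was taken, and the log2 values of all 32 arrays were quantile-normalized. The upper 60% of probes by mean log2 (above 6.65) were kept, the brightest probe standing for each gene. The annotation gave 1 symbol for 18332 probes and listed no others (2257 unnamed), and 18315 matched a current gene table. Each experiment's 16 arrays were fitted with a mean per group, since the residual spread differed between experiments. Differences between compounds came from all 32 arrays with a weight per experiment (1.72 active, 0.582 inactive). Calls are at 5% by Benjamini-Hochberg. Scripts were tested on simulated data.

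Besides all members, up to 4 genes of each other list with the smallest p, and the 10 or 3 most correlated genes, are named. E2F1, TUBB3, DYNC1H1 and CDKN1A fall under that rule, and FOXM1 was named after its values were seen. Alternatives were 11 other settings (for vehicle times 10), leaving out each array, leaving out the 4 doubtful arrays, and KIF23 by its dimmer probe, the last chosen after seeing the data. Runs, and pairs of treated and vehicle arrays within them, were inferred from the alphabetical order of the letter codes in the titles, since no label states them. Such pairs deviated together in all 8 inactive-compound pairs (correlations 0.160 to 0.688). With 2 arrays per group, the deviations of the 2 pairs at 48 h mirror each other, so their shared correlation (0.434) is 1 observation. In the active-compound experiment 6 of 7 pairs deviated together (-0.045 to 0.248). A block by pair is therefore given for the active compound only among the alternatives. The number of arrays limits the precision of every value.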

Additional observations from a re-analysis of the deposited data

Results flagged for a closer look

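The change of KIF20A under the active compound differed between times, by 0.64 between 48 h and 10 h (SE 0.13, adjusted p = 0.00488, limma). That of KIF2C differed by 0.76 between 48 h and 10 h (adjusted p = 0.00204) and by 0.74 between 24 h and 10 h (adjusted p = 0.0118). These 3 results stand out because a test of the difference itself passed. The effect was less negative at the later time in each case. All treated arrays at 10 h lay below all vehicle arrays for both genes. The treated and vehicle arrays of KIF2C overlapped at 24 and 48 h, while those of KIF20A did not.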

How the results depend on the processing

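Calls of KIF20A and KIF2C at 10 h, of KIF14 at 48 h, and of KIF20A, KIF14, KIF2C and KIFC2 on the mean kept their direction and stayed past the threshold under all 11 settings and without any 1 array. The count of members called moved by over 1.5 times as follows, and the cause was not tested. With 1 spread shared by both experiments it was 0 at 24 h and 1 at 48 h under the active compound, 0 for vehicle at 24 against 10 h, and 0 for the change of effect from 10 to 48 h and from 10 to 24 h. Of all genes, 175, 203 and 1038 were called at 10, 24 and 48 h, and 25, 16 and 169 with that shared spread. With median scaling it was 1 at 24 h, 1 at 48 h, 1 for the change of effect from 10 to 48 h and 0 for that from 10 to 24 h, with 70, 79 and 466 of all genes called at the 3 times. At 24 h it was also 1 with quantile normalization within each experiment, with a normexp offset of 16, without the filter on dim probes, and with inferred runs as a replicate block. At 48 h it was 3 with the offset of 16 and 2 without the filter. For vehicle at 24 against 10 h it was 1 without the filter, with the mean over all probes of a gene, and with KIF23 read from its dimmer probe. The 48 h change of KIF23 reversed to 0.094 on that probe, which was tried after seeing the data. With pairs of the same time and inferred run as a replicate block the count was 1 at 24 h, 1 for the active against the inactive effect at 10 h (KIF20A, -0.80, adjusted p = 0.0184) and 1 on the mean (KIF20A, -0.41, adjusted p = 0.0198), and the block changed no other call. No label states these pairs, and 1 of the 7 active-compound pairs did not deviate together. Vehicle times lie in different pairs and could not be fitted with that block. Leaving out each array in turn gave 3 to 4 members at 10 h, 0 to 1 at 24 h, 1 to 4 at 48 h, 5 to 6 on the mean, 1 to 2 for vehicle at 24 against 10 h, 2 to 3 for the change of effect from 10 to 48 h and 0 to 2 for that from 10 to 24 h, and 0 in all other comparisons. Where a group is left with 1 array, that array is taken to vary like the others. Without the 4 arrays of run 3 in doubt, no member was called under the inactive compound. Signal over background limits KIF18A and the dimmer KIF23 probe most.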
